A study of Homo sapiens with 8 samples.

Results

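The mRNA levels of 10 genes whose products restrain or engage T cells and natural killer (NK) cells were followed through all 8 RNA-seq libraries of Kyse510, an established human cell line of esophageal squamous cell carcinoma (ESCC). The 10 were chosen by gene symbol out of the 34164 genes listed in either deposited table, and all 10 were listed in both tables. The rule held no measured value, but earlier results of these data were known when the genes were chosen. They are CD274, PDCD1LG2, CD276, CEACAM1, IDO1, NT5E, MICA, MICB, ULBP2 and PVR.

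Tumour cells meet T cells and NK cells through surface proteins and through enzymes that change the surroundings. PD-L1 (CD274) and PD-L2 (PDCD1LG2) bind PD-1 on T cells and inhibit them, and IDO1 (which starts the breakdown of tryptophan to kynurenine) and CD73 (NT5E, which makes adenosine from AMP) restrain lymphocytes by way of metabolites. MICA, MICB and ULBP2 work in the other direction, since they are stress-induced ligands of the activating NK receptor NKG2D, and PVR (CD155) binds both the activating receptor DNAM-1 and the inhibitory receptor TIGIT.

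In the pharmacological arm, Kyse510 cells received vehicle (DMSO), 7 µM SP2509, an inhibitor of the histone demethylase LSD1, 7 µM UNC0642, an inhibitor of the histone methyltransferase G9a, or both inhibitors, for 2 days. No separate dose is given for the combination. In the genetic arm, Kyse510 cells carried a doxycycline- (Dox-) inducible hairpin against LSD1 (shLSD1) or against G9a (shG9a), were selected as stable clones with puromycin for 14 days, and were either left without Dox or given Dox for 2 days. Each condition is 1 library, so no difference below has a replicate check. Dox without a targeting hairpin was not analysed here, so the effects of Dox and of silencing cannot be told apart.

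Values are FPKM, which scale the fragments on a gene for gene length and sequencing depth, and the tables of the 2 arms were made separately. The steps between low FPKM values gave library totals from 15662035 to 17889466 reads. KDM1A, which encodes LSD1, had 26.0 FPKM in the shLSD1 line without Dox and 6.29 with it. In the shG9a line KDM1A had 26.4 and 35.8 FPKM, and EHMT2, which encodes G9a, had 7.85 and 4.76. An inhibitor need not change the mRNA of its target. With vehicle, SP2509, UNC0642 and both inhibitors, KDM1A had 40.7, 36.2, 40.3 and 32.0 FPKM. EHMT2 had 11.1, 10.2, 10.3 and 5.38 FPKM in the same order, so it was lower with the combination. Of 9 markers of squamous epithelium, 8 or 9 reached 1 FPKM in every library, though their summed level ran from 599.6 to 4874 FPKM, and SOX2 ranged from 0.313 FPKM with SP2509 to 38.8 in the induced shG9a line. The part of that difference in the results was not tested. Among 8 leukocyte markers, whose summed level ran from 0.970 to 5.10 FPKM, at most 2 reached 1 FPKM in a library, and the defining marker PTPRC stayed at or below 0.0425 FPKM. The summed level of 5 fibroblast markers ran from 3.12 to 6.74 FPKM and that of 3 endothelial markers from 3.56 to 14.5 FPKM. In bulk RNA, fewer cells that express a gene and less RNA per cell cannot be told apart.

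To ask how the 10 genes responded, each treated library was compared with its own control, and a gene was counted when the ratio of (FPKM + 1) was at least 1.3 in either direction and at least 1 of the 2 libraries had 1 FPKM or more. With both inhibitors, 9 of the 10 genes were higher than with vehicle and 0 were lower, while IDO1 stayed below 1 FPKM in both libraries. Over all 13907 genes tested in that comparison, 31.4% were higher and 31.7% were lower, 63.2% in all. With SP2509 alone, 7 were higher (21.0% of 13342 genes tested) and 1 (NT5E) was lower (39.9%, and 60.9% in either direction), with MICA within 1.3-fold and CD274 below the filter. With UNC0642 alone, 4 (CD276, MICB, ULBP2 and NT5E) were higher (18.2% of 13244 genes tested) and 0 were lower (16.9%, and 35.1% in either direction), 2 (MICA and PVR) lay within 1.3-fold, and 4 lay below the filter. Centring on the median or TMM scaling turned the SP2509 split of 7 higher and 1 lower into 8 and 0.

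The knockdowns divided the 10 genes. In the shLSD1 line, Dox was accompanied by higher IDO1, CEACAM1, MICB and NT5E (4 genes, against 24.8% of 12970 genes tested) and by lower ULBP2 (1 gene, against 12.3%, and 37.1% in either direction), a split of 4 and 1 that became 4 and 2 with centring or TMM scaling. In the shG9a line, IDO1, MICB and NT5E were higher (3 genes, against 32.9% of 13080 genes tested) and ULBP2 and PVR were lower (2 genes, against 17.6%, and 50.5% in either direction). The remaining genes lay within 1.3-fold or, for 2 and 3 genes respectively, below the filter. The percentages run over genes that passed the filter, whereas the counts are out of all 10 members.

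The median log2 fold change of all 10 genes was 0.74 with SP2509, 0.51 with UNC0642, 1.03 with the combination, 0.33 in the shLSD1 line and 0.12 in the shG9a line. The medians of all genes in the tables, likewise with no filter, were -0.01, 0, 0, 0.01 and 0.04. Most of those genes lay below 1 FPKM in both libraries, which holds their median near 0. Among all genes past the filter the medians were -0.21, -0.01, -0.02, 0.13 and 0.18. In the shG9a line the median of the 10 genes (0.12) was below that last value. CD274, PDCD1LG2 and CEACAM1 had well under 1 FPKM in the controls and could pass the filter only through a treated library, and so could IDO1 (0.509 FPKM) against vehicle. Among the genes with at least 1 FPKM in vehicle, a filter blind to the treated library, 4 of 6 members were higher with SP2509 and 1 was lower (15.7% and 43.1% of 12345 genes), 4 and 0 of 6 with UNC0642 (13.9% and 18.2%), and 6 and 0 of 6 with the combination (24.1% and 35.7%). With the same filter on the uninduced library, 3 of 7 members were higher and 1 was lower in the shLSD1 line (21.3% and 13.3% of 12028 genes), and 3 and 2 of 7 in the shG9a line (28.4% and 19.4% of 11869).

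A yardstick for libraries without induction came from the uninduced shG9a line set against the uninduced shLSD1 line. Only 7.55% of 12449 genes were past 1.3-fold there (3.04% higher and 4.51% lower in the shG9a line), and of the 10 members only IDO1 was (1.54 and 2.65 FPKM in the shLSD1 and shG9a lines). The other 9 differed by at most 0.12 in log2(FPKM + 1), a scale that compresses low genes. As ratios of reads with 95% counting intervals, CD274 was at 1.61 (0.734 to 3.66) and PDCD1LG2 at 0.716 (0.149 to 3.02). For these 2 genes the yardstick is therefore wide. These are again single libraries.

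**Figure D1:**
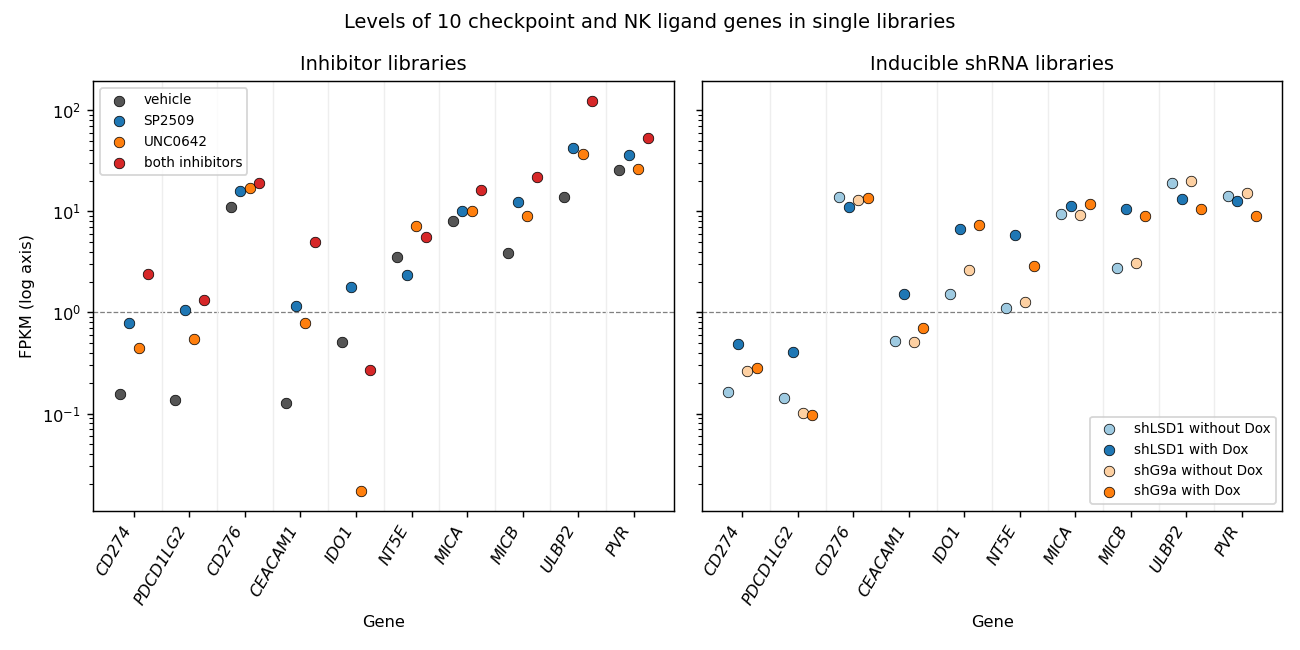
Each point is 1 library, with FPKM on a logarithmic axis and the 10 genes on the horizontal axis, in the inhibitor libraries (left) and the inducible shRNA libraries (right). The dashed line marks 1 FPKM. The combination is the highest inhibitor point for 8 of the 10 genes, reaching 124 FPKM for ULBP2. For PDCD1LG2 it was not separated from SP2509 by the reads. The libraries with Dox lie above those without for MICB, IDO1 and NT5E and below for ULBP2.

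ULBP2 (ENSG00000131015, chromosome 6 from 149942000 to 149949235) encodes a GPI-anchored ligand of NKG2D and had the widest range of responses. It had 13.7 FPKM under vehicle, 42.4 under SP2509, 36.4 under UNC0642 and 124 under both inhibitors. Dox took it from 19.1 to 13.1 FPKM in shLSD1 cells and from 20.0 to 10.5 FPKM in shG9a cells. All 3 inhibitor libraries were thus above vehicle, and both induced libraries were below their own uninduced library.

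The ratio of the combination to vehicle was 9.05 for ULBP2, with an exact 95% counting interval of 8.02 to 10.3 from 2830 and 290 reads. Only 88 of the 13907 genes tested (0.633%) were as high or higher in log2 fold change. SP2509 gave a ratio of 3.09 (2.71 to 3.53) and UNC0642 a ratio of 2.65 (2.32 to 3.04). The ratio with Dox was 0.688 (0.594 to 0.796) in the shLSD1 line and 0.523 (0.446 to 0.613) in the shG9a line. These intervals cover counting error only, and reads of ULBP2 could be shared with its near-identical paralogs of the RAET1 family.

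The promoter of ULBP2 is shown as that of the member with the widest range, from RefSeq (GRCh38.p14), 5′ to 3′ from 250 bases before to 50 after the start site. Capitals mark an AP-1 element (TGANTCA, in 7.73% of 34796 promoters) at position -2 from the start site and an ATF4 and C/EBP element (TGATGNAA, in 3.63%) at position 21, read on the opposite strand.
ULBP2, chr6:149941764-149942063, plus strand: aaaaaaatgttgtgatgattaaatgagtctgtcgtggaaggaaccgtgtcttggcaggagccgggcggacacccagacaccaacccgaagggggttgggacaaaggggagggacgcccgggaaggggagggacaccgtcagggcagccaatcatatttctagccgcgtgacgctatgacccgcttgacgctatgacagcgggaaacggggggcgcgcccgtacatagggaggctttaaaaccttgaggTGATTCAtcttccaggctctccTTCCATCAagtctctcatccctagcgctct

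MICB (ENSG00000204516, chromosome 6 from 31494881 to 31511124) was higher in all 5 treated libraries than in their controls. It had 3.88 FPKM under vehicle, 12.3 under SP2509, 8.89 under UNC0642 and 22.04 under both inhibitors. Under Dox, shLSD1 cells went from 2.74 to 10.5 FPKM and shG9a cells from 3.07 to 8.998 FPKM. Within each arm, every treated library was above the control.

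The ratio of MICB to vehicle was 3.18 (2.68 to 3.79) with SP2509, 2.29 (1.92 to 2.75) with UNC0642 and 5.68 (4.83 to 6.72) with the combination. With Dox the ratio was 3.85 (3.18 to 4.68) in the shLSD1 line and 2.93 (2.42 to 3.57) in the shG9a line. The increase in the shLSD1 line was among the 77 largest of 12970 genes (0.594%). MICB was the only member past 1.3-fold in the same direction in all 5 comparisons.

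MICA (ENSG00000204520) lies 79.6 kb from MICB on chromosome 6, from 31399784 to 31415315, and encodes a closely related ligand. Its levels moved little by comparison, with 8.05 FPKM under vehicle, 10.1 under SP2509, 10.1 under UNC0642 and 16.1 under both inhibitors. Without and with Dox, shLSD1 cells had 9.42 and 11.3 FPKM and shG9a cells 9.25 and 11.8 FPKM. Every treated library was above its control, but only the combination passed 1.3-fold, at a ratio of 2.00 (1.74 to 2.30). The ratios in the other 4 comparisons lay between 1.1996 and 1.28, and each counting interval left out 1. Reads could be shared between MICA and MICB, and MICA is highly polymorphic, which can affect mapping to the reference.

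MICA and MICB are textbook targets of heat shock factors, so their promoters are shown for the element they share. The sequences are from RefSeq (GRCh38.p14), run 5′ to 3′ from 250 bases before to 50 after the start site, and have the heat shock element GAATTTTC in capitals.
MICA, chr6:31403345-31403644, plus strand: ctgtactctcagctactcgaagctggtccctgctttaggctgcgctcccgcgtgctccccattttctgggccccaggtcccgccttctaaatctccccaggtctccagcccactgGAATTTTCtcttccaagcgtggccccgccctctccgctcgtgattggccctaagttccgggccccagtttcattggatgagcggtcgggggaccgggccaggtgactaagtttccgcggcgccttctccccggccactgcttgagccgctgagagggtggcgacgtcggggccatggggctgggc
MICB, chr6:31497895-31498194, plus strand: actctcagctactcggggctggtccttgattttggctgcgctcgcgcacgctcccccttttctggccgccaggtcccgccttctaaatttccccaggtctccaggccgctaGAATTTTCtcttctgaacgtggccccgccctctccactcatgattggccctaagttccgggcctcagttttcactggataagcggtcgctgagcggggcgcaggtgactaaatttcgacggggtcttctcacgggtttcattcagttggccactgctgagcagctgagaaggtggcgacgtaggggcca

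The motif searched was GAANNTTC, which reads the same on both strands, and 6.79% of 34796 distinct RefSeq promoters of this length hold it. It lies at position -135 from the start site in MICA and -139 in MICB. Of the 10 members, 8 had a promoter in the RefSeq set, and only these 2 matched this motif. The everted form TTCNNGAA (7.76% of promoters) matched 0 members. A match describes these letters and shows no binding.

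PVR (ENSG00000073008, chromosome 19 from 44643798 to 44663583) was the most abundant member in FPKM with vehicle. It had 25.6 FPKM under vehicle, 36.4 under SP2509, 26.1 under UNC0642 and 52.8 under both inhibitors. Uninduced and induced shLSD1 cells had 14.0 and 12.6 FPKM, and shG9a cells had 15.2 and 8.93 FPKM. The ratio to vehicle was 1.02 (0.9495 to 1.10) with UNC0642, so any difference there was within counting error, against 1.42 (1.33 to 1.52) with SP2509 and 2.07 (1.94 to 2.20) with the combination. After Dox it was 0.897 (0.814 to 0.989) in the shLSD1 line and 0.586 (0.526 to 0.653) in the shG9a line.

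**Figure D2:**
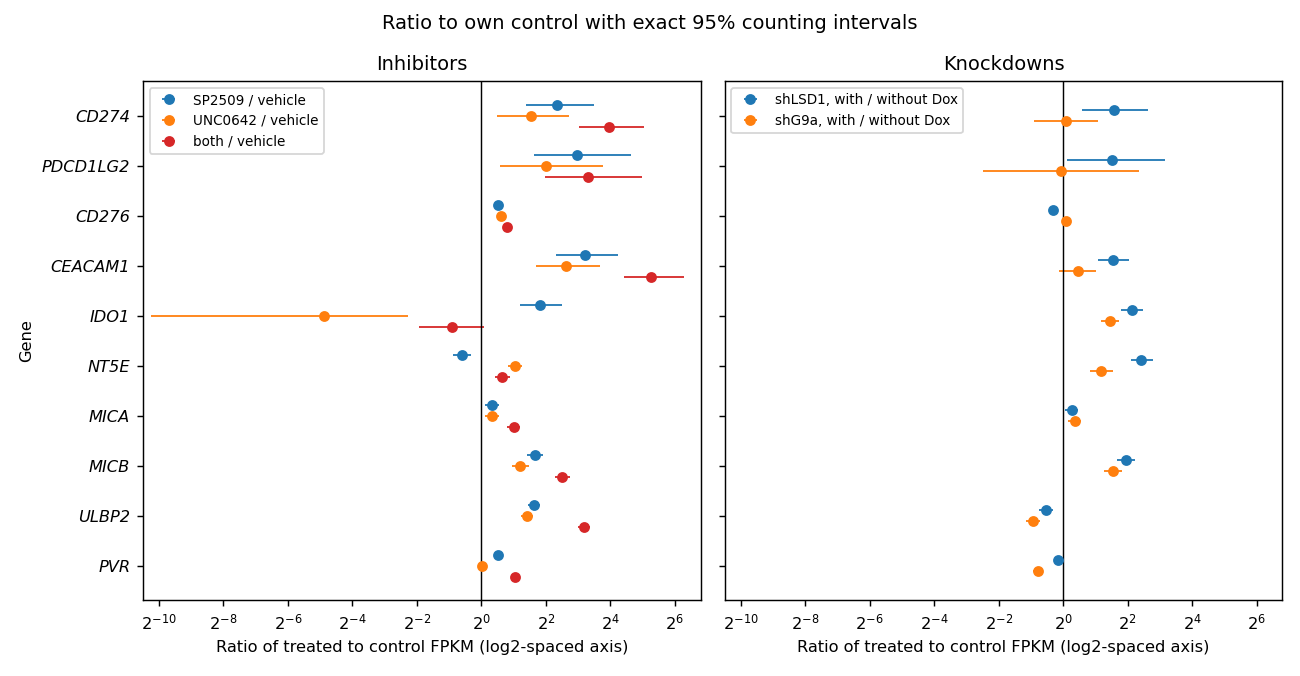
Each point is the FPKM of 1 treated library divided by that of its control, on an axis spaced in powers of 2, with exact 95% counting intervals that hold no variation between cultures. For ULBP2 the 3 inhibitor points lie right of 1 (3.09, 2.65 and 9.05) and both knockdown points lie left of it (0.688 and 0.523), whereas MICB lies right of 1 throughout.

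CD274 (ENSG00000120217) and PDCD1LG2 (ENSG00000197646) are neighbours on chromosome 9, at 5450503 to 5470566 and 5510570 to 5571254, with 40.0 kb between them. CD274, which encodes PD-L1, had 0.155 FPKM under vehicle, 0.793 under SP2509, 0.449 under UNC0642 and 2.41 under both inhibitors. These levels rest on 10, 58, 33 and 167 reads. Dox left shLSD1 cells at 0.487 FPKM against 0.165 without it (35 and 12 reads), and shG9a cells at 0.281 against 0.265 FPKM (20 and 18 reads). CD274 was thus low throughout and reached 1 FPKM only with both inhibitors.

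The ratio of CD274 to vehicle was 15.5 with the combination, with a wide counting interval of 8.22 to 32.9, and 5.10 (2.59 to 11.2) with SP2509 and 2.89 (1.39 to 6.57) with UNC0642. On the log2(FPKM + 1) scale, which compresses low genes, the change with the combination was 1.56. After Dox it was 2.96 (1.499 to 6.26) in the shLSD1 line and 1.06 (0.533 to 2.13) in the shG9a line, where no difference was detectable at this depth.

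PDCD1LG2, which encodes PD-L2, followed a similar course at still lower levels. It had 0.135 FPKM under vehicle, 1.04 under SP2509, 0.544 under UNC0642 and 1.33 under both inhibitors, from 5, 44, 23 and 53 reads. Without and with Dox, levels were 0.143 and 0.411 FPKM in shLSD1 cells (6 and 17 reads) and 0.102 and 0.0977 FPKM in shG9a cells (4 and 4 reads). The ratio to vehicle was 7.74 (3.08 to 25.0) with SP2509, 4.03 (1.498 to 13.6) with UNC0642 and 9.84 (3.96 to 31.5) with the combination. The combination did not differ from SP2509 alone beyond counting error for PDCD1LG2 (ratio 1.27, interval 0.836 to 1.94), whereas CD274 was 3.04 times (2.24 to 4.17) its level with SP2509 alone.

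CD276 (ENSG00000103855, chromosome 15 from 73683966 to 73714518) encodes B7-H3, a member of the B7 family with inhibitory and costimulatory roles described. It measured 11.1 FPKM under vehicle, 15.9 under SP2509, 17.05 under UNC0642 and 19.2 under both inhibitors. Levels without and with Dox were 13.8 and 11.1 FPKM in shLSD1 cells and 12.9 and 13.6 FPKM in shG9a cells. Its ratio to vehicle was 1.43 (1.32 to 1.55), 1.53 (1.41 to 1.66) and 1.73 (1.60 to 1.87) in the 3 inhibitor libraries. For Dox it was 0.805 (0.742 to 0.873) in the shLSD1 line and 1.06 (0.977 to 1.15) in the shG9a line, and the sign of the latter turned under centring and TMM scaling (log2 change of 0.08, against -0.07 and -0.13).

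CEACAM1 (ENSG00000079385, chromosome 19 from 42507304 to 42561234) encodes an adhesion receptor that inhibits T and NK cells through contacts with itself on the other cell. It had 0.127 FPKM under vehicle, 1.17 under SP2509, 0.779 under UNC0642 and 4.91 under both inhibitors, from 11, 115, 77 and 458 reads. Dox was accompanied by 1.52 FPKM against 0.520 in shLSD1 cells and by 0.700 against 0.514 FPKM in shG9a cells. All 5 treated libraries were above their controls.

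The combination raised CEACAM1 38.6 times over vehicle (interval 21.4 to 77.9), the highest ratio of any member, where SP2509 gave 9.20 (4.95 to 18.9) and UNC0642 6.13 (3.24 to 12.8). After Dox it was 2.92 (2.11 to 4.10) in the shLSD1 line and 1.36 (0.924 to 2.02) in the shG9a line, the latter within counting error. Reads of CEACAM1 could be shared with other CEACAM genes of the chromosome 19 cluster.

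The promoters of CD274 and CEACAM1 are shown because each holds the core of an interferon-stimulated response element (ISRE), which interferon regulatory factors bind. They follow the same layout from RefSeq (GRCh38.p14), with ISRE cores in capitals and, in CD274, also a GAS (interferon gamma-activated site) element.
CD274, chr9:5450292-5450591, plus strand: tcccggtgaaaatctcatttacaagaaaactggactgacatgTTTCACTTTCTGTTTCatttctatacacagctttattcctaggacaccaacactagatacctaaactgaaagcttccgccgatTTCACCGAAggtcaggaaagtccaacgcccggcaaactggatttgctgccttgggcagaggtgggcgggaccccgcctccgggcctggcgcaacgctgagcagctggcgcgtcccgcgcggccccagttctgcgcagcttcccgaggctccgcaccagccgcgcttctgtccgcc
CEACAM1, chr19:42528432-42528731, minus strand: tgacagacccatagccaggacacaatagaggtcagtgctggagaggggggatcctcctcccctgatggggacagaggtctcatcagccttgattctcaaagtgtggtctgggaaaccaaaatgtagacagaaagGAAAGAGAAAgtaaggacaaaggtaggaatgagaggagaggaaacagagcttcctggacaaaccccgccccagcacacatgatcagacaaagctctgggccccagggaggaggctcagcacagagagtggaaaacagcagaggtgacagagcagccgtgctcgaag

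The ISRE core, a pair of GAAA runs with 2 bases between them, was searched on both strands and occurs in 3.57% of 34796 promoters. CD274 holds it on the opposite strand as TTTCACTTTC and TTTCTGTTTC, at positions -208 and -202 from the start site, which overlap each other, and CEACAM1 holds GAAAGAGAAA at position -116. The GAS element TTCNNNGAA, found in 7.67% of promoters, occurs in CD274 as TTCACCGAA at position -125. Among the 8 members with a promoter in the RefSeq set, the AP-1 and the ATF4 and C/EBP elements were found in ULBP2 alone. The E-box CACGTG (7.20% of promoters) was found in 0 of them. IDO1 and PDCD1LG2 had no promoter there, so no motif could be searched in these genes.

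IDO1 (ENSG00000131203, chromosome 8 from 39902275 to 39928444) was, like NT5E, a member on opposite sides of vehicle with the 2 inhibitors. It had 0.509 FPKM under vehicle, 1.79 under SP2509, 0.0171 under UNC0642 and 0.272 under both inhibitors, from 26, 104, 1 and 15 reads. Induced shLSD1 cells had 6.71 FPKM against 1.54 uninduced, and induced shG9a cells 7.26 against 2.65. Of the inhibitor libraries only SP2509 was above vehicle, and both induced libraries were above both uninduced ones.

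The ratio of IDO1 to vehicle was 3.52 (2.27 to 5.64) with SP2509 and 0.0337 (0.000821 to 0.205) with UNC0642, the latter from 1 read. The combination, at 0.535 (0.264 to 1.05), was not separated from vehicle by the reads, and lay at 0.152 (0.0822 to 0.263) of the level with SP2509 alone. Dox gave 4.36 (3.46 to 5.56) in the shLSD1 line and 2.74 (2.26 to 3.34) in the shG9a line. IDO1 already differed 1.72 times (1.31 to 2.27) between the 2 uninduced lines.

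IRF1, an interferon regulatory factor that activates IDO1 and CD274, is given beside them. IRF1 had 6.39 FPKM under vehicle, 7.51 under SP2509, 2.72 under UNC0642 and 5.85 under both inhibitors. IDO1 had the same order, but with 1 read under UNC0642 and a combination not separated from vehicle by the reads. CD274 had another order, with 0.155 FPKM under vehicle, 0.793 under SP2509, 0.449 under UNC0642 and 2.41 under both inhibitors. With Dox, IRF1 rose from 9.41 to 16.4 FPKM (shLSD1) and from 8.19 to 14.4 FPKM (shG9a). CD274 had 0.165 and 0.487 FPKM without and with Dox in the shLSD1 line, and 0.265 and 0.281 in the shG9a line. The part of IRF1 in the levels of IDO1 and CD274 was not tested.

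NT5E (ENSG00000135318, chromosome 6 from 85449584 to 85495791) encodes CD73. It had 3.54 FPKM under vehicle, 2.33 under SP2509, 7.20 under UNC0642 and 5.52 under both inhibitors. It rose with Dox in both lines, from 1.09 to 5.87 FPKM for shLSD1 and from 1.28 to 2.90 FPKM for shG9a. SP2509 gave the only treated library below its control.

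The ratio of NT5E to vehicle was 0.659 (0.542 to 0.799) with SP2509, 2.04 (1.75 to 2.37) with UNC0642 and 1.56 (1.33 to 1.83) with the combination. The decrease with SP2509 no longer reached 1.3-fold once the median of all genes was set to 0 (log2 change of -0.45, and -0.35 centred). With Dox it was 5.37 (4.27 to 6.82) in the shLSD1 line, among the 60 largest increases of 12970 genes (0.463%), and 2.27 (1.78 to 2.91) in the shG9a line.

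**Figure D3:**
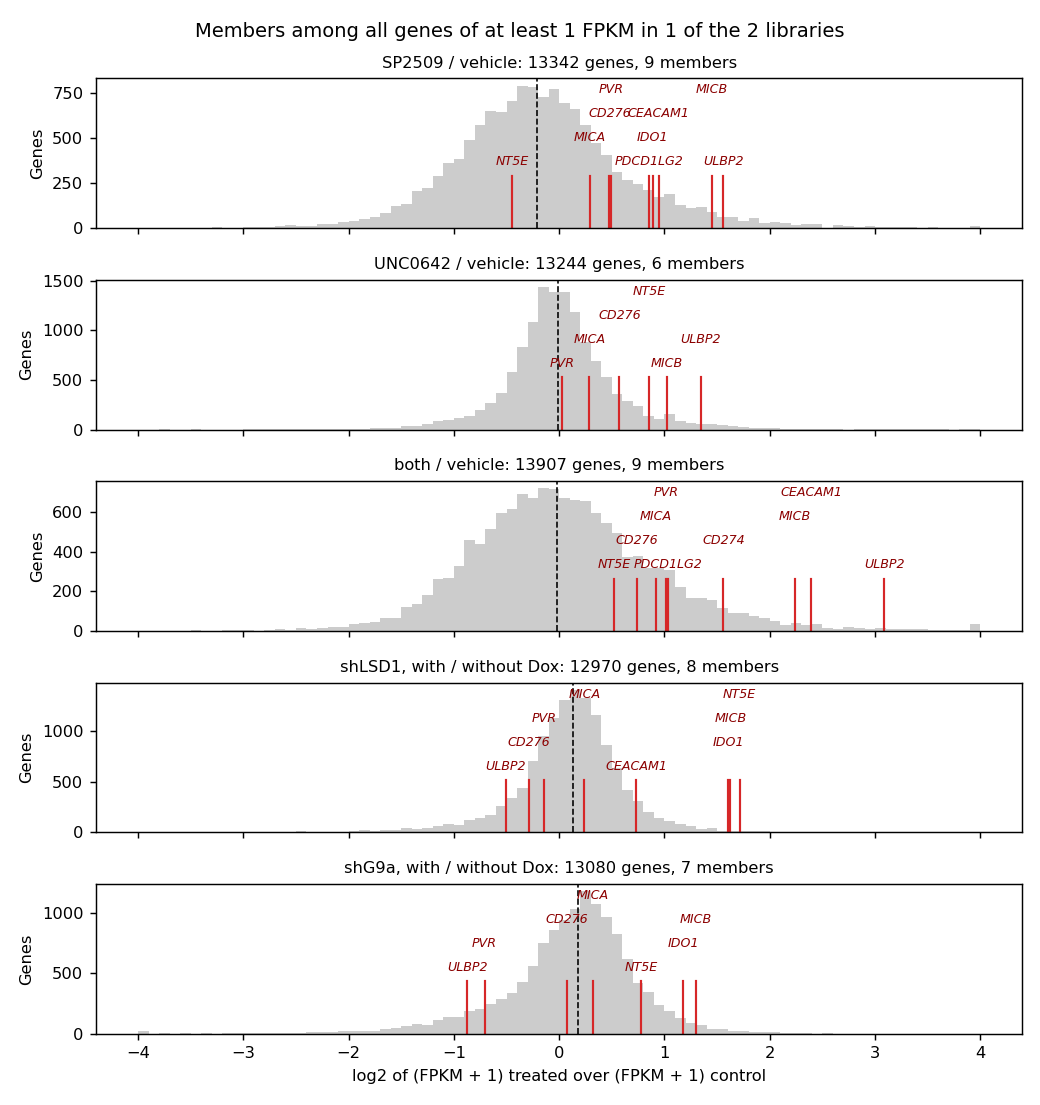
Histograms show the log2 of (FPKM + 1) treated over (FPKM + 1) control for all genes with at least 1 FPKM in 1 of the 2 libraries, with changes beyond 4 placed in the end bins, a dashed line at the median and a red line for each member that passed the same filter. With the combination the 9 members shown run from 0.52 (NT5E) to 3.09 (ULBP2), all above the median of -0.02. CD274, PDCD1LG2 and CEACAM1 were below 1 FPKM with vehicle and are shown only because the combination reached 1 FPKM. Their place above the median is therefore set by the filter. The 6 members with at least 1 FPKM in vehicle span the same range.

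With both inhibitors, 8 of the 10 genes stood above their level with either inhibitor alone, the exceptions being IDO1 and NT5E. For PDCD1LG2 the difference from SP2509 alone lay within counting error (ratio 1.27, interval 0.836 to 1.94). The same share over all genes was not computed, so the count has nothing to be read against. For ULBP2 the ratio of the combination (9.05) lay near the product of the single ratios (8.19), and the same held for CD274 (15.5 and 14.7). For PDCD1LG2 the combination was below the product (9.84 and 31.2), and for CEACAM1 too (38.6 and 56.4). MICB (5.68 and 7.28) and CD276 (1.73 and 2.18) were below it as well. Above the product were PVR (2.07 and 1.45), MICA (2.00 and 1.56), NT5E (1.56 and 1.34) and IDO1 (0.535 and 0.118, the latter resting on 1 read with UNC0642). All of these ratios share the vehicle library, and departures from the product were not tested.

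To compare the inhibitor and the knockdown of the same enzyme, members past the filter in each of the paired comparisons were sorted by direction. For LSD1, MICB, IDO1 and CEACAM1 were higher with SP2509 and in the induced shLSD1 line, and ULBP2 and NT5E went in opposite directions. Of 11769 genes that passed both filters, 4.61% were past 1.3-fold in the same direction and 20.4% in opposite directions. IDO1 and CEACAM1 were below 1 FPKM with vehicle and passed through the treated library, so they cannot be read against these shares. CD276, MICA and PVR also passed both filters, and for neither enzyme were they past 1.3-fold in both comparisons. For G9a, MICB and NT5E were higher with UNC0642 and in the induced shG9a line, and ULBP2 went in opposite directions, where 8.80% of 11906 genes went the same way and 10.1% opposite ways. ULBP2 was therefore higher with either inhibitor and lower with either knockdown.

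**Figure D4:**
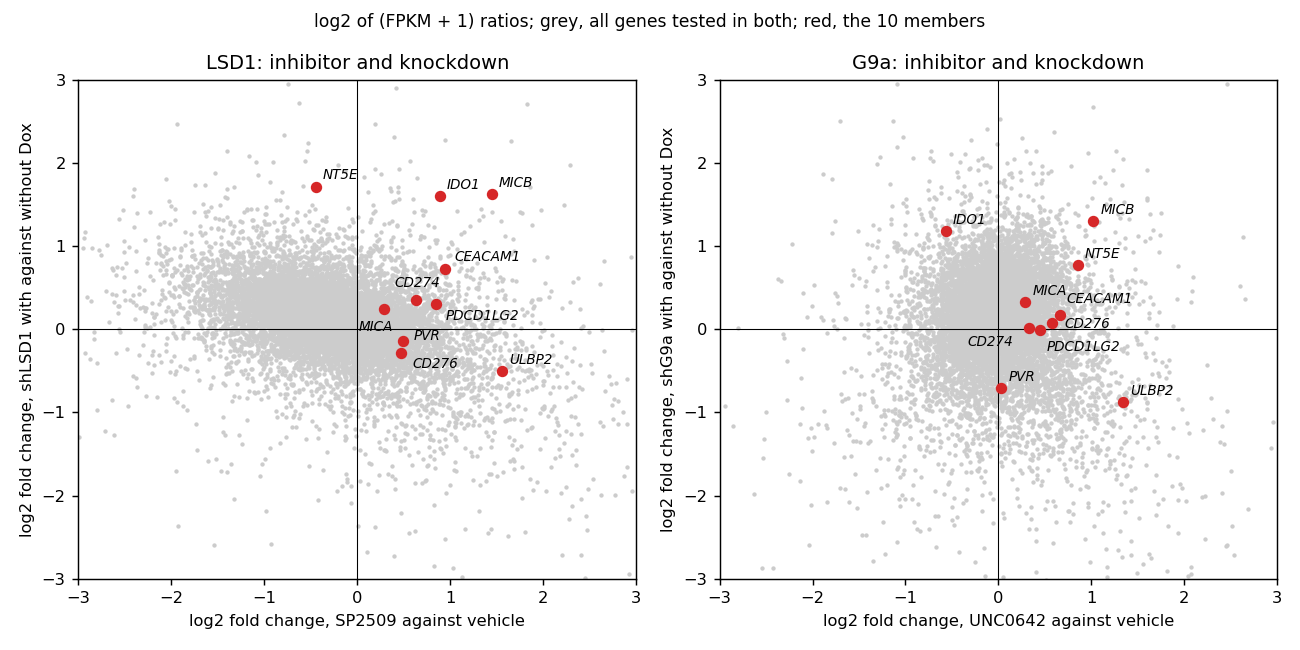
Each grey point is a gene tested in both comparisons and each red point a member, with the log2 fold change of the inhibitor on the horizontal axis and that of the knockdown on the vertical axis, for LSD1 (left) and G9a (right). Both axes end at 3 in either direction, so a few grey points are not drawn. MICB lies in the upper right of both panels (1.45 and 1.63 for LSD1, 1.02 and 1.297 for G9a), and ULBP2 lies in the lower right of both (1.56 and -0.51, 1.35 and -0.87).

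The other ligands of NKG2D were read beside MICA, MICB and ULBP2. RAET1L, a close copy of ULBP2, had 1.76 FPKM under vehicle, 7.26 under SP2509, 4.03 under UNC0642 and 45.9 under both inhibitors. RAET1G had 0.773 FPKM with vehicle and 8.41 with the combination, RAET1E had 0.638 and 5.62, and ULBP3 had 3.30 and 14.3. ULBP1 was the exception, with 5.22 FPKM under vehicle, 1.70 under SP2509, 0.623 under UNC0642 and 3.21 under both inhibitors. Without and with Dox, RAET1L had 1.26 and 1.19 FPKM in the shLSD1 line and 1.21 and 0.429 in the shG9a line, so RAET1L did not rise with either knockdown. ULBP3 did, from 1.54 to 2.20 (shLSD1) and from 1.90 to 2.86 FPKM (shG9a). ULBP1 went from 2.64 to 2.24 and from 3.19 to 0.901 FPKM. RAET1G went from 0.985 to 1.11 and from 0.814 to 0.466, and RAET1E from 0.450 to 0.418 and from 0.201 to 0.135 FPKM.

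In all, 92 other genes of these pathways were followed, of which 91 were listed in either table. With the combination, 22 of the 67 that passed the filter were higher and 18 were lower (31.4% and 31.7% of all genes tested). With SP2509, 27 of 66 were higher and 15 lower (21.0% and 39.9%), and with UNC0642 20 of 67 were higher and 14 lower (18.2% and 16.9%). With Dox, 18 of 67 were higher and 10 lower in the shLSD1 line (24.8% and 12.3%), and 19 of 66 were higher and 24 lower in the shG9a line (32.9% and 17.6%).

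Among 23 other checkpoint and costimulatory ligands, 13 passed the filter with the combination. Of these, 6 were higher and 2 were lower (31.4% and 31.7% of all genes tested). TNFSF9, the ligand of the costimulatory receptor 4-1BB, had 6.67 FPKM with vehicle and 51.1 with the combination, and HLA-E, which engages the inhibitory NK receptor NKG2A, had 55.0 and 153 FPKM. NCR3LG1 (B7-H6), a ligand of the activating NK receptor NKp30, had 0.615 and 2.71 FPKM. In the shLSD1 line, FGL1, a ligand of LAG-3, had 0.990 FPKM without and 12.1 with Dox, and TNFRSF14 (HVEM), a ligand of BTLA, had 11.0 and 3.51. Of 16 other NK cell ligands, 14 passed the filter with the combination, 6 higher and 4 lower, beside the same shares of all genes. TNFSF10 (TRAIL) went in different directions in the arms, from 6.97 FPKM with vehicle to 2.08 with the combination, but from 5.53 to 27.9 with Dox in the shLSD1 line and from 5.29 to 24.0 in the shG9a line.

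Around NT5E, 5 of 11 adenosine pathway genes passed the filter with the combination. Of these, 3 were higher and 2 lower (31.4% and 31.7% of all genes tested). ADORA2B, an adenosine receptor, fell from 24.0 to 8.96 FPKM with Dox in the shG9a line. ENTPD2, an ectonucleotidase, had 0.509 FPKM with vehicle and 2.14 with UNC0642, but fell from 2.59 to 0.564 FPKM with Dox in the shLSD1 line.

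Around IDO1, 8 of 13 genes of tryptophan and kynurenine metabolism passed the filter with the combination. Of these, 2 were higher and 2 lower (31.4% and 31.7% of all genes tested). WARS, a tryptophanyl-tRNA synthetase, had 47.5 FPKM with vehicle, 9.78 with SP2509 and 15.9 with UNC0642, but 42.1 with the combination, within 1.3-fold of vehicle. SLC7A5 and SLC3A2, the chains of an amino acid transporter that carries tryptophan, fell from 448 to 209.9 and from 239.9 to 80.98 FPKM with Dox in the shG9a line, and SLC7A5 fell from 539 to 132.9 FPKM with SP2509. KYNU, which acts further down the kynurenine pathway, rose from 3.81 to 12.3 FPKM with Dox in the shLSD1 line, and QPRT, which makes the NAD precursor from quinolinate, from 0.797 to 2.89 FPKM in the shG9a line.

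Around CD274, 16 of 17 genes of the interferon gamma route and its regulators passed the filter in the shLSD1 line, 9 higher and 1 lower (24.8% and 12.3% of all genes tested). With the combination, 5 of 16 were higher and 4 lower (31.4% and 31.7%). IFNGR1, a chain of the interferon gamma receptor, had 162 FPKM with vehicle and 29.0 with the combination, and HIF1A, the hypoxia factor, had 122.7 and 21.4, while both rose with Dox in the shLSD1 line, from 61.9 to 130.6 and from 46.6 to 98.6 FPKM. The NF-kB subunits differed in direction with the combination, RELA from 19.4 to 48.4 FPKM and NFKB1 from 22.5 to 8.87. SOCS3, a feedback inhibitor of cytokine signalling, rose from 3.71 FPKM with vehicle to 22.6 with SP2509. MYC rose from 136.5 to 697 FPKM with SP2509 and fell with Dox from 219 to 104.6 (shLSD1) and from 205.7 to 67.2 FPKM (shG9a).

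Of 12 factors in shedding or stability of these proteins, 11 passed the filter with the combination. Of these, 0 were higher and 4 lower (31.4% and 31.7% of all genes tested). PDIA6, a disulfide isomerase, fell from 140.7 to 57.7 FPKM with Dox in the shG9a line, and SPOP, a ubiquitin ligase adaptor, fell from 10.2 to 4.43 FPKM with SP2509.

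The genes with a course most like ULBP2 and CEACAM1, the members with the widest range of log2 fold change (3.96 and 2.22), were sought by Euclidean distance over the 5 log2 fold changes among 12567 genes. Nearest to ULBP2 were ADGRF4 (distance 0.461), PKIB (0.633) and C1orf116 (0.773). Nearest to CEACAM1 were IFI6 (0.484), SYTL2 (0.538) and IER5 (0.667). The 3 inhibitor comparisons share the vehicle library, so the 5 values are not independent.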

How the data were processed

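RNA-seq values of 8 Kyse510 libraries, 1 per condition, were used, with conditions taken from the sample labels. Paired 150-base reads were cleaned of poor-quality and contaminating sequence and mapped to GRCh38 by the authors, who deposited FPKM values in 2 tables, for 31582 and 28942 genes. The aligner, the counting tool and the use of strand are not given in the sources used here. Columns that annotate genes by sequence similarity and function were not used.

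Fold changes were log2 ratios of FPKM with a pseudocount of 1, among genes with at least 1 FPKM in at least 1 of the 2 libraries, and were counted past 1.3-fold, the fold part of the study's criterion, which also used a p-value. No p-value was computed. Library totals were read from the FPKM steps of 1-exon genes (GENCODE release 44). Reads of each member followed from the smallest gene length that made all its values whole, which gives the fewest reads and so the widest intervals, and ratios carry exact 95% (Clopper-Pearson) counting intervals. The procedure was tested on simulated data.

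The 10 genes, the 92 others and the motifs were chosen with earlier results of these data known. Of the others, those past 2-fold in a comparison were named, at most 4 per direction and list. ULBP3 and IRF1 were named after their values were seen. 1 further gene is not reported here. Alternatives were a pseudocount of 0.1, no filter, a filter of 5 FPKM, a fold of 2, centring on the median, TMM scaling (a trimmed mean of ratios), a counting interval that leaves out 1, and the mean of both uninduced libraries as control. A filter on the control library alone was added after seeing the data. Python 3.11.15, pandas 2.3.3, numpy 2.4.6, scipy 1.17.1 and matplotlib 3.10.9 were used.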

Additional observations from a re-analysis of the deposited data

Results flagged for a closer look

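ULBP2 was flagged because it lay in opposite directions with the inhibitor and the knockdown of the same enzyme, both past 1.3-fold. Its log2 fold change was 1.56 with SP2509 and -0.51 with Dox in the shLSD1 line, and 1.35 with UNC0642 and -0.87 with Dox in the shG9a line. NT5E did the reverse for LSD1, with a log2 fold change of -0.45 with SP2509 and 1.71 with Dox in the shLSD1 line. The SP2509 change of NT5E fell short of 1.3-fold with centring (-0.35) and TMM scaling (-0.23). Opposite directions were not rare among genes that passed both filters. They made up 20.4% of 11769 genes for LSD1 and 10.1% of 11906 for G9a, beside 4.61% and 8.80% in the same direction. Each effect compares 2 libraries of 1 table, the inhibitor and knockdown tables were made separately, and the difference between the effects was not tested.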

How the results depend on the processing

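The main counts of members past 1.3-fold in either direction were 8 with SP2509, 4 with UNC0642, 9 with the combination, 5 in the shLSD1 line and 5 in the shG9a line. With a fold of 2 they were 2 with SP2509, 2 with UNC0642, 3 in the shLSD1 line and 2 in the shG9a line. Among all genes past the filter, 2837 of 13342 were past 2-fold for SP2509 and 1047 of 13244 for UNC0642. For both inhibitors 3142 of 13907 genes were. For Dox, 860 of 12970 genes (shLSD1) and 1459 of 13080 (shG9a) were. The member count for both inhibitors fell from 9 to 6 at a fold of 2. It was also 6 at a filter of 5 FPKM and with the filter on the control library alone. With SP2509 the count was 4 at a filter of 5 FPKM and 5 with the filter on the control library alone, and with UNC0642 it was 7 without a filter, since fewer or more genes then enter. All other alternatives run left the counts within 1.5 times. Of 170 log2 fold changes of single members under the alternatives that change a ratio, 151 moved by less than the counting error, 19 by more, and 0 of the values past 1.3-fold changed sign. Centring removed a log2 shift of 0.11 in the shLSD1 line and 0.14 in the shG9a line, and TMM scaling one of -0.30 with SP2509, 0.14 in the shLSD1 line and 0.22 in the shG9a line. With either scaling, NT5E left the counted genes and MICA entered them with SP2509, and CD276 entered as lower in the shLSD1 line. Depth limits CD274 and PDCD1LG2, with 4 to 20 reads in the 3 controls and the induced shG9a line, and IDO1, with 1 read under UNC0642. No paired analysis was possible because each condition has 1 library.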

Other observations

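The 3 control libraries come from separately made tables, and their levels are set side by side without a comparison. PVR had 25.6 FPKM with vehicle and 14.0 and 15.2 in the uninduced shLSD1 and shG9a lines, NT5E had 3.54 against 1.09 and 1.28, and IDO1 had 0.509 against 1.54 and 2.65. CEACAM1 had 0.127 against 0.520 and 0.514 FPKM. CD276 (11.1 against 13.8 and 12.9) and MICA (8.05 against 9.42 and 9.25) were closer.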
